A study of Saccharomyces cerevisiae with 24 samples.

Results

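The 32 genes described here encode the enzymes that carry glucose to ethanol, acetate and glycerol in budding yeast. They are 32 of the 5211 genes in the count table and were listed by gene ID for their place in the pathway. No measured value served as a criterion, but earlier results of these data were known when they were chosen. By role they comprise 3 hexose kinases, 5 enzymes of upper glycolysis, 9 of lower glycolysis, 3 pyruvate decarboxylases, 5 alcohol dehydrogenases, 3 aldehyde dehydrogenases and 4 enzymes of glycerol synthesis. To compare isozymes, 8 genes were taken as major forms in glucose medium and 13 as minor forms, 7 were glycolytic genes without such a counterpart or subunits of 1 enzyme, and the 4 glycerol genes were kept apart. All 32 passed the filter on low counts in both assays.

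Glycolysis splits glucose into pyruvate and yields ATP and NADH. Yeast growing on glucose sends most of the pyruvate through pyruvate decarboxylase and alcohol dehydrogenase to ethanol, which regenerates NAD+, and a side branch through glycerol 3-phosphate also takes up surplus NADH. Many steps have several isozymes, of which a major form is abundant on glucose and minor forms are known for expression on other carbon sources, in stationary phase or under stress.

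The study measured poly(A) mRNA by RNA-seq and ribosome-protected fragments, called footprints, by ribosome profiling. Footprints report where and how often ribosomes sit on an mRNA, so a gene's footprint count follows both its mRNA level and the ribosomes on each mRNA. Wild-type cells of strain BY4741, a MATa laboratory strain, were compared with a mutant of it lacking ZUO1 (zuo1Δ). Zuo1 is the J-domain protein of the ribosome-associated complex, which works with the Hsp70 Ssb on nascent chains as they leave the ribosome.

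Each genotype was taken unstressed in synthetic complete medium with 2% glucose at 30 °C, after 30 min of oxidative stress with H2O2 at 0.25 mM, or after 45 min of heat shock at 37 °C. The 2 assays, 2 genotypes and 3 conditions gave 12 groups with 2 libraries each, 24 in all, which the series' text calls biological replicates. Heat shock was begun by adding an equal volume of hot fresh medium, and unstressed cells were harvested before stress, so a mock addition of medium was not among the groups. The labels do not say whether the mutant was 1 clone or several, or which cultures had selection in the medium.

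ZUO1 had 0 counts in all zuo1Δ libraries and 1987 to 32580 counts in wild type. The MATa genes MFA1, MFA2, STE2 and BAR1 were counted in both genotypes, and so was the MAT alpha gene STE3. STE2 had 654 to 77891 counts in wild type and 977 to 101991 in zuo1Δ, and STE3 had 6 to 398 and 9 to 943. Being counted does not by itself tell the mating types apart. Library totals ran from 7810893 to 122213415 counts in mRNA and from 1686930 to 15788345 in footprints. Between replicates the biological coefficient of variation, as 1 value over all genes, was 0.169 in footprints and 0.318 in mRNA. Its fitted trend at the most abundant gene was 0.159 in footprints and 0.422 in mRNA. In 3 libraries the genes that rose most in stressed wild-type footprints, leaving out the 32 enzymes, did not stand above the unstressed libraries. The median log2 level of 63 H2O2 genes relative to the unstressed libraries was 0.06 in the footprint library labelled zuo1Δ H2O2 replicate 1, against 1.51 in replicate 2 and at most 0.58 in an unstressed library. For mRNA it was 0.20 in the library labelled zuo1Δ H2O2 replicate 2, with 0.44 as the highest unstressed value. The mRNA library labelled zuo1Δ heat replicate 1 had a median of -0.03 over 63 heat genes although the highest unstressed value was 0.30. Over the genes of the other stress these mRNA libraries had medians of 0.59 (heat genes, the H2O2 library) and 1.10 (H2O2 genes, the heat library). Both therefore went against their labels, and results that rest on these 3 libraries are given with and without them.

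Levels below are CPM, a gene's counts relative to its library's total, scaled by TMM factors, which adjust for libraries in which a few genes take many reads. Folds are log2 differences with their SE from edgeR's quasi-likelihood test, and a gene is said to rise or fall only where its Benjamini-Hochberg adjusted p over all genes tested was under 0.05. Near-identical copies (TDH2 and TDH3, ENO1 and ENO2, ADH1 and ADH2, PDC1 and PDC5, HXK1 and HXK2, GPP1 and GPP2) share stretches of sequence, and how reads matching both copies were counted is not given in the sources used here. Values of each such copy are therefore uncertain by the reads it could have gained from or lost to its partner. In bulk cultures a change in some cells and a smaller change in all of them cannot be told apart, nor can a change in total RNA per cell be seen.

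In unstressed wild-type footprints the enzymes spanned more than 4 orders of magnitude on the CPM per kb scale, on which levels of different genes can be compared. TDH3, the main glyceraldehyde-3-phosphate dehydrogenase, was at 27300 ± 298 CPM per kb (SD, n = 2), and PDC1, the main pyruvate decarboxylase, at 24900 ± 579. FBA1, the aldolase, followed at 23200 ± 400, CDC19, the main pyruvate kinase, at 21800 ± 303, ADH1, the main alcohol dehydrogenase, at 18300 ± 326 and ENO2, the main enolase, at 17900 ± 194. ADH1 and ENO2 differed by about as much as their SDs, so their order is not firm, while the steps above them exceeded the SDs. The phosphofructokinase subunits PFK1 and PFK2 were close to each other, at 1200 ± 9.01 and 1120 ± 78.7 CPM per kb.

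Minor isozymes lay far lower. ENO1 was at 832 ± 231 CPM per kb, GLK1, glucokinase, at 359 ± 192, HXK1, the minor hexokinase, at 265 ± 193 and TDH1 at 249 ± 106, with replicate SDs that overlap among the last 3. PYK2, the minor pyruvate kinase, stood at 32 ± 11.9, PDC5 at 23.0 ± 2.44 and ADH2, the ethanol-consuming alcohol dehydrogenase, at 10.2 ± 1.82. PDC6, the least used pyruvate decarboxylase, was lowest at 1.03 ± 0.902, and its lowest library held 1 count. GPP1, the main glycerol-3-phosphate phosphatase, was the highest glycerol gene at 4120 ± 305, above GPD1 at 376 ± 131, GPP2 at 222 ± 46.2 and GPD2 at 205 ± 51.9. The plot of levels in unstressed wild type shows the same order with the mRNA levels beside it.

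**Figure D1:**
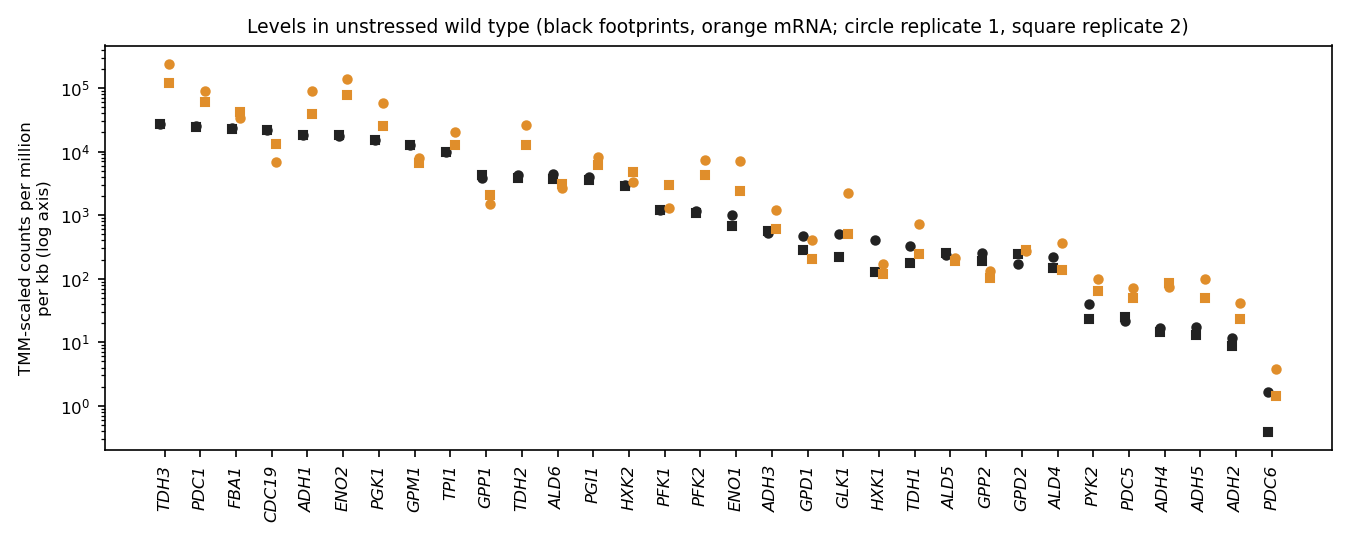
Levels of the 32 enzymes in unstressed wild-type libraries, on a log axis of TMM-scaled CPM per kb of coding sequence, ordered by footprints. Each point is 1 library (black footprints, orange mRNA, circle replicate 1, square replicate 2), from TDH3 near 27300 CPM per kb down to PDC6 near 1.03 in footprints.

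The enzymes took a smaller share of the reads in zuo1Δ than in wild type in both assays. In unstressed footprints the share of library counts on the 32 genes was 20.2% ± 0.495 (SD, n = 2) in wild type and 16.6% ± 0.212 in zuo1Δ. After H2O2 it was 16.3% ± 0.141 against 13% ± 1.56, and after heat 18.5% ± 0.919 against 15.5% ± 1.84. Within each condition both wild-type footprint libraries lay above both zuo1Δ libraries, although across conditions the ranges, 16.2% to 20.6% and 11.9% to 16.8%, overlapped.

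In mRNA the share was 30.9% ± 5.8 in unstressed wild type and 13.8% ± 4.03 in zuo1Δ. It was 20.2% ± 7.78 and 9.61% ± 2.24 after H2O2, and 33.6% ± 12.2 and 8.66% ± 0.332 after heat. Wild-type mRNA replicates differed widely, from 14.7% to 42.2% over the 6 libraries, while zuo1Δ ran from 8.03% to 16.6%. The 50 most counted genes held 19% to 61.7% of an mRNA library, with 10 to 15 of the enzymes among them, and 25.2% to 35.1% of a footprint library, with 10 to 16, so a change in these enzymes moves the share left for all other genes.

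**Figure D2:**
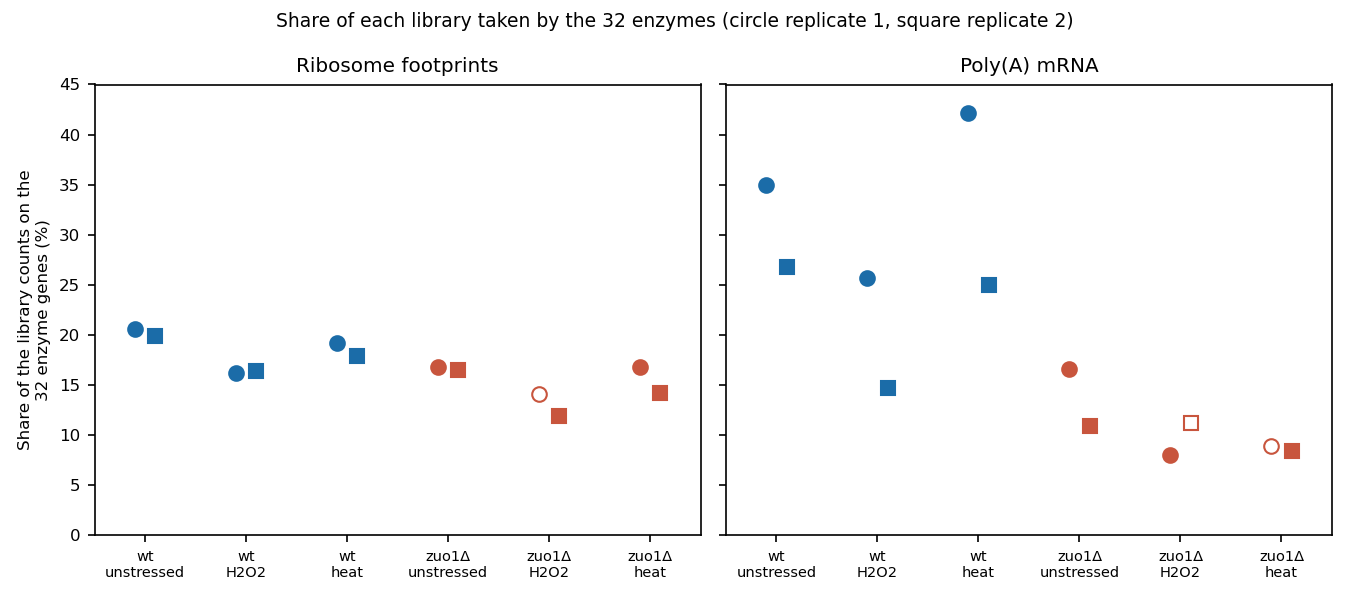
Percent of each library's counts that fell on the 32 enzyme genes, by genotype and condition, for footprints (left) and mRNA (right). Circles are replicate 1 and squares replicate 2, open symbols mark the 3 libraries whose stress genes did not stand above the unstressed libraries, and within each condition the wild-type points lie above the zuo1Δ points.

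Averaged over the 3 conditions, zuo1Δ had fewer footprints on most of the glycolytic and fermentative enzymes. Of the 32 genes, 23 fell and 0 rose, where 13.1% of the 5064 genes tested fell and 12.5% rose. The median log2 difference of the enzymes was -0.59, beside 0.02 over all genes tested. All 7 glycolytic genes without a counterpart fell, as did 7 of 8 major isozymes, 8 of 13 minor isozymes and 1 of 4 glycerol genes. In 5 genes, PFK2, TDH2, PGK1, PDC5 and ADH1, every zuo1Δ footprint library lay below every wild-type one across conditions, as did 2.15% of all genes tested. Without the 3 doubted libraries 22 fell and 0 rose: 21 of the 23 passed again, GLK1 and ENO1 did not, and PDC1 was gained.

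Scaling by library size alone, which raised the median difference of all genes by 0.18, left 15 enzymes with a fall and 0 with a rise. The 8 calls lost with it were GLK1, FBA1, TPI1, GPM1, ENO1, CDC19, ADH3 and ALD5. Falls of 14 enzymes passed in each of the 12 fits that left out 1 library: HXK2, PGI1, PFK1, PFK2, TDH2, TDH3, PGK1, ENO2, PYK2, PDC5, ADH1, ADH5, ALD5 and ALD6.

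The largest fall in footprints was that of PDC5, a minor pyruvate decarboxylase (YLR134W, chromosome XII, 410723 to 412414, build R64). Its footprint level in wild type was 36 and 41.8 CPM unstressed, 25.3 and 25.9 after H2O2, and 45.6 and 35.7 after heat. In zuo1Δ it was 14.1 and 11.4, then 12.1 and 10.3, then 17.9 and 17.5 CPM. Every zuo1Δ library was thus below every wild-type library, and the mean log2 difference was -1.32 ± 0.13 (SE; edgeR adjusted p = 5.62e-05). PDC1, its abundant counterpart, did not pass, at -0.08 ± 0.10 (adjusted p = 0.552), but fell by 0.20 without the doubted libraries (edgeR adjusted p = 0.0369) and was at 0.09 with library size alone. Footprints on PDC1 were 42800 and 41400 CPM in unstressed wild type and 36900 and 34200 in unstressed zuo1Δ.

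ADH1, which makes ethanol from acetaldehyde (YOL086C, chromosome XV, 159548 to 160594), fell by 0.95 on the log2 scale (SE 0.08, edgeR adjusted p = 1.7e-05). Its wild-type footprints were 19400 and 18900 CPM unstressed, 11800 and 12300 after H2O2, and 16700 and 16800 after heat. The zuo1Δ libraries had 9780 and 9350, 6700 and 5270, and 10200 and 8460 CPM, all below the lowest wild-type library. ADH4, an alcohol dehydrogenase induced by zinc limitation, fell by 1.15 (SE 0.32, adjusted p = 0.0221), on 0.942 to 19 CPM per library. ADH5 fell by 0.98 (SE 0.24, adjusted p = 0.0119) and the mitochondrial ADH3 by 0.30 (SE 0.09, adjusted p = 0.0244), while ADH2 was at -0.61 ± 0.24 and did not pass (adjusted p = 0.0831).

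Hexose phosphorylation and the upper pathway moved in the same direction. HXK2 (YGL253W), the main hexokinase on glucose, fell by 1.08 on the log2 scale (SE 0.08, edgeR adjusted p = 7.85e-06), from 4360 and 4260 CPM in unstressed wild type to 2240 and 2160 in unstressed zuo1Δ. After heat HXK2 had 2390 and 1980 CPM in wild type and 788 and 940 in zuo1Δ, so the genotypes were apart within each condition but not across conditions. GLK1 fell by 0.83 (SE 0.27, adjusted p = 0.0374), a call that was lost without the doubted libraries (-0.68, adjusted p = 0.0664), with DESeq2 and in 8 of the 12 fits that left out 1 library. HXK1 was at -0.82 ± 0.41 without passing (edgeR adjusted p = 0.164), with replicates that differed up to several-fold. PFK2 (YMR205C), a phosphofructokinase subunit, fell by 0.75 (SE 0.07) and its partner PFK1 by 0.49 (SE 0.08). PGI1, which makes fructose 6-phosphate, fell by 0.62 (SE 0.09), the triose isomerase TPI1 by 0.33 (SE 0.08) and FBA1 by 0.29 (SE 0.08).

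In the lower pathway TDH2 (YJR009C), a second abundant glyceraldehyde-3-phosphate dehydrogenase, fell most, by 1.05 on the log2 scale (SE 0.09, edgeR adjusted p = 2.9e-05). Wild-type TDH2 footprints were 4310 and 3830 CPM unstressed, 2880 and 2720 after H2O2, and 3520 and 2740 after heat, against 1390 and 1660, 1310 and 1230, and 2320 and 1820 in zuo1Δ. PGK1 (YCR012W), phosphoglycerate kinase, fell by 0.92 (SE 0.08, adjusted p = 2.39e-05), from 19200 and 18700 CPM to 11300 and 10900 without stress. ENO2 fell by 0.65 (SE 0.08), PYK2 by 0.62 (SE 0.15), TDH3 by 0.56 (SE 0.09), and GPM1, phosphoglycerate mutase, and CDC19 by 0.29 each (SE 0.08 and 0.07). ENO1 fell by 0.37 (SE 0.11, adjusted p = 0.0325), and its call was lost without the doubted libraries (-0.31, edgeR adjusted p = 0.0538) and in 8 of the 12 fits that left out 1 library. TDH1 did not pass, at -0.19 ± 0.32.

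Among the acetate-forming aldehyde dehydrogenases, the cytosolic ALD6 fell by 0.83 (SE 0.20, edgeR adjusted p = 0.0109) and the mitochondrial ALD5 by 0.32 (SE 0.08, adjusted p = 0.0154), and ALD4 was at 0.12 ± 0.17. Of the glycerol genes, GPD1, the glycerol-3-phosphate dehydrogenase known for osmotic induction, fell by 0.85 (SE 0.22, adjusted p = 0.0148). GPD2, GPP1 and GPP2 were at -0.02 ± 0.15, -0.01 ± 0.08 and -0.16 ± 0.20, and did not pass.

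**Figure D3:**
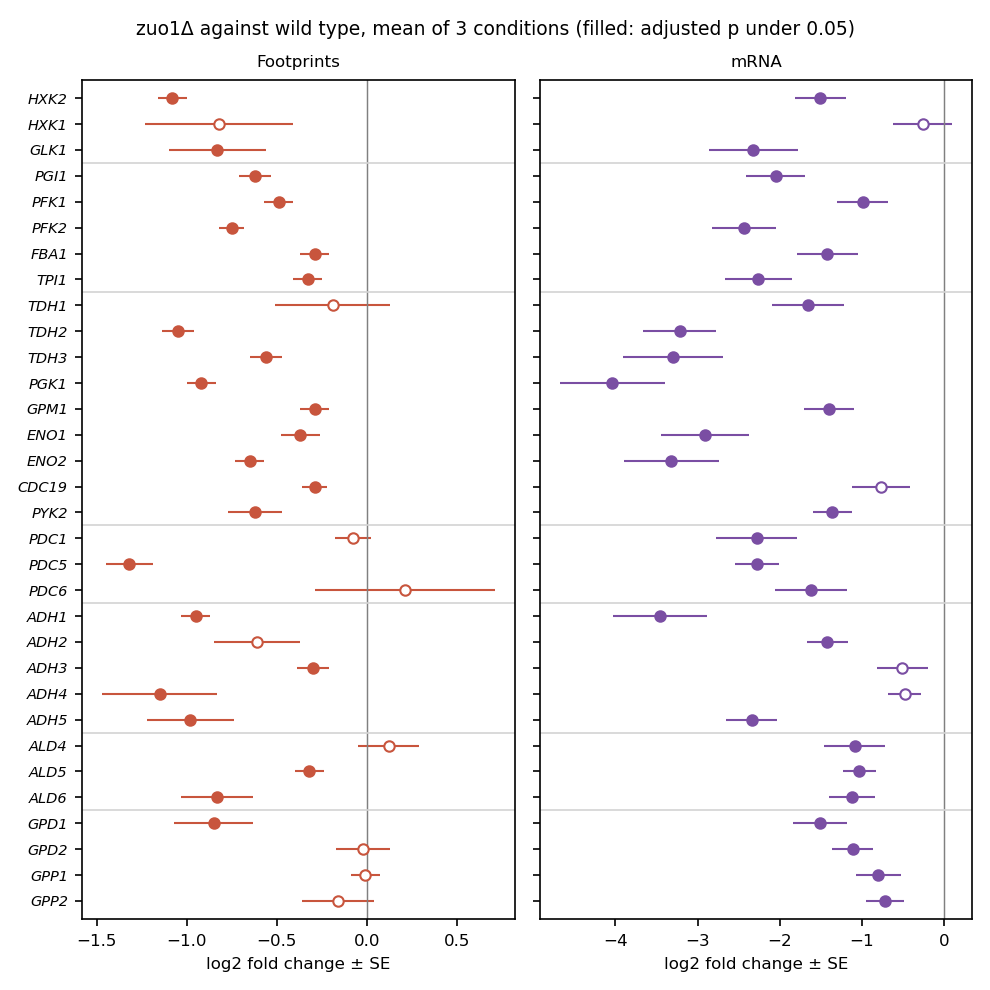
Log2 difference of zuo1Δ from wild type, mean of the 3 conditions, for each enzyme with its SE, in footprints (left) and mRNA (right, on a wider axis), grouped by role from hexose kinases at the top to glycerol enzymes at the bottom. Filled points passed at an adjusted p under 0.05, and all filled points lie below 0; with library size alone PFK1, ALD4, ALD5, ALD6, GPD2, GPP1 and GPP2 turn positive in mRNA.

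Within single conditions fewer genes passed. Without stress 11 of the 32 fell in footprints and 0 rose, where 3.04% of 5064 genes fell and 1.78% rose. These were HXK2, PGI1, PFK1, PFK2, TDH2, PGK1, ENO2, PDC5, ADH1, ALD5 and GPP1, with PDC5 lowest at -1.59 ± 0.23 (edgeR adjusted p = 0.00233). All 8 major isozymes and all 7 genes without a counterpart had both zuo1Δ libraries below both wild-type ones, as 23.5% of all genes did, and 7 of the 13 minor isozymes had a difference above 0. The count of falls was 7 without wild-type unstressed replicate 2 or without zuo1Δ unstressed replicate 1, and 17 when only these 4 libraries were fitted.

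After H2O2 14 enzymes fell and 1 rose in zuo1Δ against wild type, where 9.68% of genes fell and 9.34% rose. GLK1 fell most, by 1.77 on the log2 scale (SE 0.47, edgeR adjusted p = 0.0227), from 2590 and 2240 CPM in wild type to 423 and 999 in zuo1Δ, the lower of which is the doubted replicate 1. Without the 3 doubted libraries 12 enzymes fell and 1 rose, where 3.26% of genes fell and 4.94% rose, and GLK1, ADH2, ADH5 and PYK2 no longer passed, at -1.25, -1.59, -1.10 and -0.81. The enzyme that rose was GPP1, by 0.80 (SE 0.14, adjusted p = 0.00442), and it stayed at 0.80 without the doubted libraries (adjusted p = 0.0107). The total was 8 without wild-type H2O2 replicate 1 and 7 without replicate 2.

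After heat 8 enzymes fell and 0 rose, where 3.61% of genes fell and 2.86% rose. HXK2 fell most, by 1.34 (SE 0.14, edgeR adjusted p = 0.000367), followed by PDC5, PGK1, PFK2, ADH1, TDH3, ENO2 and TDH2, which ran from -1.18 to -0.59. The count was 14 in the fit without the 3 doubted libraries, 4 without wild-type heat replicate 1 and 5 without zuo1Δ heat replicate 2. HXK2, PFK2, PGK1, PDC5, ADH1, ENO2 and TDH2 fell in each of the 3 conditions. TDH2 after heat was near the threshold (edgeR adjusted p = 0.0497) and its call was lost with library size alone. When only the groups compared were fitted, that call and the H2O2 calls of PFK2 and ENO2 were lost. PGK1, PDC5, ENO2 and TDH2 each also lost a call in some fits that left out 1 library.

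In mRNA most enzymes were again lower in zuo1Δ, with a wider spread between replicates. Averaged over conditions, 28 of the 32 fell and 0 rose, where 26.4% of 5070 genes fell and 24.2% rose, and the enzymes' median was -1.51, beside 0.01 over all genes. With TMM factors this median was farther from 0 than the -0.59 of footprints, but with library size alone it was -0.24 in mRNA and -0.41 in footprints, and the sizes in the 2 assays were compared by a test only without stress, as translational efficiency. The largest fall was in PGK1, which fell by 4.04 on the log2 scale (SE 0.64, edgeR adjusted p = 0.00123). PGK1 mRNA in wild type was 72100 and 31400 CPM unstressed, 20900 and 4950 after H2O2, and 164000 and 28100 after heat, against 8290 and 1930, 1310 and 2380, and 1760 and 1300 in zuo1Δ. The lowest wild-type library, H2O2 replicate 2, lay below the highest zuo1Δ library, so the genotypes overlapped across conditions though not within them.

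The mRNA of ADH1 fell by 3.46 (SE 0.57), ENO2 by 3.32 (SE 0.58), TDH3 by 3.30 (SE 0.61) and TDH2 by 3.22 (SE 0.45), all with edgeR adjusted p of 0.00159 or less. In PGI1, TDH2, PYK2 and PDC5 every zuo1Δ mRNA library was below every wild-type one, as in 2.25% of genes. CDC19, HXK1, ADH3 and ADH4 did not pass, at -0.77 ± 0.35, -0.26 ± 0.36, -0.51 ± 0.31 and -0.48 ± 0.20. The glycerol genes GPD1, GPD2, GPP1 and GPP2 fell by 1.51, 1.11, 0.80 and 0.72. The falls of 24 enzymes passed in each of the 12 fits that left out 1 library, and those of PFK1, ALD4, GPP1 and GPP2 did not. Without the 3 doubted libraries 29 enzymes fell and 0 rose, ADH4 being the one gained (-0.67, edgeR adjusted p = 0.0426).

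These mRNA results depended on the scaling more than those of footprints. With library size alone the median difference of all genes moved up by 1.25, and 13 enzymes fell and 2 rose. The 13 were GLK1, PGI1, PFK2, TPI1, TDH2, TDH3, PGK1, ENO1, ENO2, PDC1, PDC5, ADH1 and ADH5, from -2.64 for PGK1 to -0.74 for PGI1. HXK1 and ADH4 rose with that scaling, at 0.99 and 0.76, and 11 of the 32 enzymes had a difference above 0 where all 32 were below 0 with TMM factors. PGI1, PFK2, TDH2, TDH3, PGK1, ENO2, PDC5, ADH1 and ADH5 fell under both scalings and in both assays. These falls are relative to the bulk of genes with TMM factors and relative to all reads with library size.

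Without stress 0 of the 32 passed in mRNA, where 0.178% of genes fell and 0.0986% rose, although 24 had an unadjusted edgeR p under 0.05 and 31 were below 0. DESeq2 called a fall for 20 and a rise for 0, and edgeR called 9 falls without zuo1Δ unstressed replicate 1. TDH2 was at -3.25 ± 0.78 (edgeR adjusted p = 0.0622) and PDC5 at -2.28 ± 0.47 (adjusted p = 0.0612). With library size alone 8 fell and 1 rose, and 15 of the 32 lay above 0. With the replicate number added to the edgeR model as a block, 15 fell and 0 rose. The labels do not say that these numbers mark shared cultures, though deviations of same-numbered unstressed mRNA libraries of the 2 genotypes correlated at 0.78.

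Of the 23 enzymes that fell in footprints and the 28 that fell in mRNA over the 3 conditions, 20 were shared, 87% of the first and 71.4% of the second. CDC19, ADH3 and ADH4 passed in footprints alone. TDH1, PDC1, PDC6, ADH2, ALD4, GPD2, GPP1 and GPP2 passed in mRNA alone. PDC1 mRNA, for example, fell by 2.28 (SE 0.49, edgeR adjusted p = 0.00275), from 152000 and 102000 CPM to 31600 and 16500 without stress, while its footprint difference was -0.08 ± 0.10 with all libraries and passed, at -0.20, without the doubted ones.

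For translational efficiency, taken in a joint model of both assays as the change in footprints beyond that in mRNA, 0 enzymes passed in the fits of all libraries. Between genotypes without stress 0.0394% of all genes fell and 0% rose, and 28 of the 32 were above 0 with a median of 1.02 (all genes -0.07), but with library size alone 15 were above 0 and 17 below. For that comparison 13 had an unadjusted edgeR p under 0.05, DESeq2 called 2 rises, and edgeR called 4 without mRNA zuo1Δ unstressed replicate 1. In wild type 0 enzymes passed after H2O2 (3 at an unadjusted p under 0.05, 0 by DESeq2) and 0 after heat (2 and 0), and 1 passed after heat without mRNA wild-type unstressed replicate 1. Of all genes 0% passed after H2O2, and after heat 0.0592% rose and 0.0394% fell.

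In wild-type footprints most major isozymes fell after H2O2 and several minor ones rose, a difference between classes for which no test was made. Of all 32, 6 enzymes rose and 13 fell, where 9.36% of genes rose and 8.79% fell. Among the 8 major isozymes 7 fell and 0 rose, among the 13 minor ones 5 rose and 1 fell, and of the 7 genes without a counterpart 4 fell. The median was -0.65 for major and 0.31 for minor isozymes, beside 0.05 over all genes. With library size alone, which raised the median of all genes by 0.21, 7 enzymes rose and 7 fell. The total of 19 was 5 without wild-type unstressed replicate 2 or without H2O2 replicate 1, and 7 without H2O2 replicate 2. In each of those fits a group had 1 library, whose spread was taken to be that of the other groups. Without wild-type unstressed replicate 2 every rise lost its call, though the differences stayed above 0.

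TDH1, the glyceraldehyde-3-phosphate dehydrogenase known for stress and stationary phase (YJL052W, chromosome X, 338271 to 339269), rose most. Its wild-type footprints went from 323 and 174 CPM unstressed to 2090 and 2100 after H2O2 and 1630 and 1320 after heat. The stressed libraries lay well above the unstressed ones, at log2 differences of 3.07 ± 0.60 after H2O2 (edgeR adjusted p = 0.00602) and 2.57 ± 0.59 after heat (adjusted p = 0.0173). In zuo1Δ TDH1 had 409 and 239 CPM unstressed, 236 and 1220 after H2O2, and 2650 and 1710 after heat. The 236 CPM is the doubted H2O2 library. After heat TDH1 rose in zuo1Δ as well, by 2.75 (SE 0.58, adjusted p = 0.0139). Without wild-type unstressed replicate 2 the H2O2 call was lost, the wild-type heat call was lost without any 1 of its 4 libraries, and the zuo1Δ heat call passed in 1 of 4 such fits.

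GLK1 rose after H2O2 in wild type by 2.16 (SE 0.48, edgeR adjusted p = 0.00976), from 744 and 335 CPM to 2590 and 2240. GPP2, the glycerol-3-phosphate phosphatase known for osmotic and oxidative induction, rose by 1.41 (SE 0.35, adjusted p = 0.0169), from 192 and 143 to 454 and 434. PYK2, ALD4 and ENO1 rose by 0.98, 0.97 and 0.94. With 1 library left out, the difference ranged from 1.64 to 2.80 for GLK1, 1.15 to 1.59 for GPP2 and 0.58 to 1.37 for PYK2. For ALD4 and ENO1 it ranged from 0.64 to 1.26 and from 0.62 to 1.21. All these calls were lost without wild-type unstressed replicate 2. HXK1 was higher in both H2O2 libraries, at 1940 and 1720 CPM against 586 and 188, but did not pass (2.25 ± 0.74, adjusted p = 0.0539).

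GPP1 had the largest fall after H2O2 in wild type, by 1.52 on the log2 scale (SE 0.14, edgeR adjusted p = 0.000382, gene YIL053W on chromosome IX, 255115 to 255867). ALD6 fell by 1.15 (SE 0.34), ALD5 by 1.07 (SE 0.14), PDC1 by 0.78 (SE 0.17), PFK1 by 0.74 (SE 0.13), CDC19 by 0.71 (SE 0.13) and ADH1 by 0.67 (SE 0.14). The other falls, in ENO2, FBA1, TDH2, TPI1, HXK2 and PFK2, ran from -0.63 to -0.40. Only GPP1, ALD5 and PFK1 passed in all 4 fits that left out 1 library, while ALD6, FBA1, HXK2, PFK2, TDH2 and TPI1 passed in 0 of the 4.

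Heat raised 3 enzymes and lowered 9 in wild-type footprints, where 3.53% of genes rose and 6.28% fell. TDH1, GPP2 and ADH3 rose, by 2.57, 1.62 (SE 0.35) and 0.55 (SE 0.15). Each of these 3 calls was lost without any 1 of the 4 libraries compared. The differences then ranged from 2.13 to 3.04, 1.37 to 1.81 and 0.45 to 0.61. ALD6 fell most, from 6530 and 5500 CPM to 2880 and 1810, a log2 difference of -1.36 ± 0.35 (edgeR adjusted p = 0.0295). ALD5 fell by 1.17 (SE 0.15), HXK2 by 0.98 (SE 0.14), TPI1 by 0.81 (SE 0.15) and CDC19 by 0.78 (SE 0.13), and ENO2, FBA1, PGI1 and PFK1 ran from -0.65 to -0.48. With library size alone, which raised the median of all genes by 0.26, 6 rose and 6 fell. The total of 12 was 4 without either unstressed library, 6 without heat replicate 1 and 2 without heat replicate 2, and only ALD5 and HXK2 passed in all 4 of these fits.

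In zuo1Δ footprints heat raised 4 enzymes and lowered 4, where 5.61% of genes rose and 6.26% fell. TDH1, GPP2, ADH5 and GPP1 rose, by 2.75, 1.92 (SE 0.35), 1.70 (SE 0.41) and 0.66 (SE 0.14). ALD6 fell by 1.48 (SE 0.35, edgeR adjusted p = 0.0201), from 3660 and 2860 CPM to 1530 and 801, and HXK2 by 1.35 (SE 0.14), CDC19 by 0.59 (SE 0.13) and ENO2 by 0.50 (SE 0.14). With library size alone 6 rose and 3 fell. The total of 8 was 2 without unstressed replicate 1, 4 without unstressed replicate 2 and 5 without either heat library, and HXK2 alone passed in all 4 of these fits.

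After H2O2 0 enzymes passed in zuo1Δ footprints, and 0% of all genes did. An unadjusted edgeR p under 0.05 was found for 15 enzymes and for 444 of the 5064 genes, and DESeq2 called 6 enzymes, all lower. This comparison includes the doubted replicate 1. Without it 2 enzymes rose and 7 fell: TDH1 at 1.95 (edgeR adjusted p = 0.00864) and GPP2 at 1.60 (adjusted p = 0.00157), and ALD6, PDC1, ADH1, FBA1, CDC19, GPM1 and ENO2 from -1.43 to -0.57. In that fit, where 2.35% of genes rose and 1.28% fell, zuo1Δ H2O2 had 1 library, taken to vary like the other groups.

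**Figure D4:**
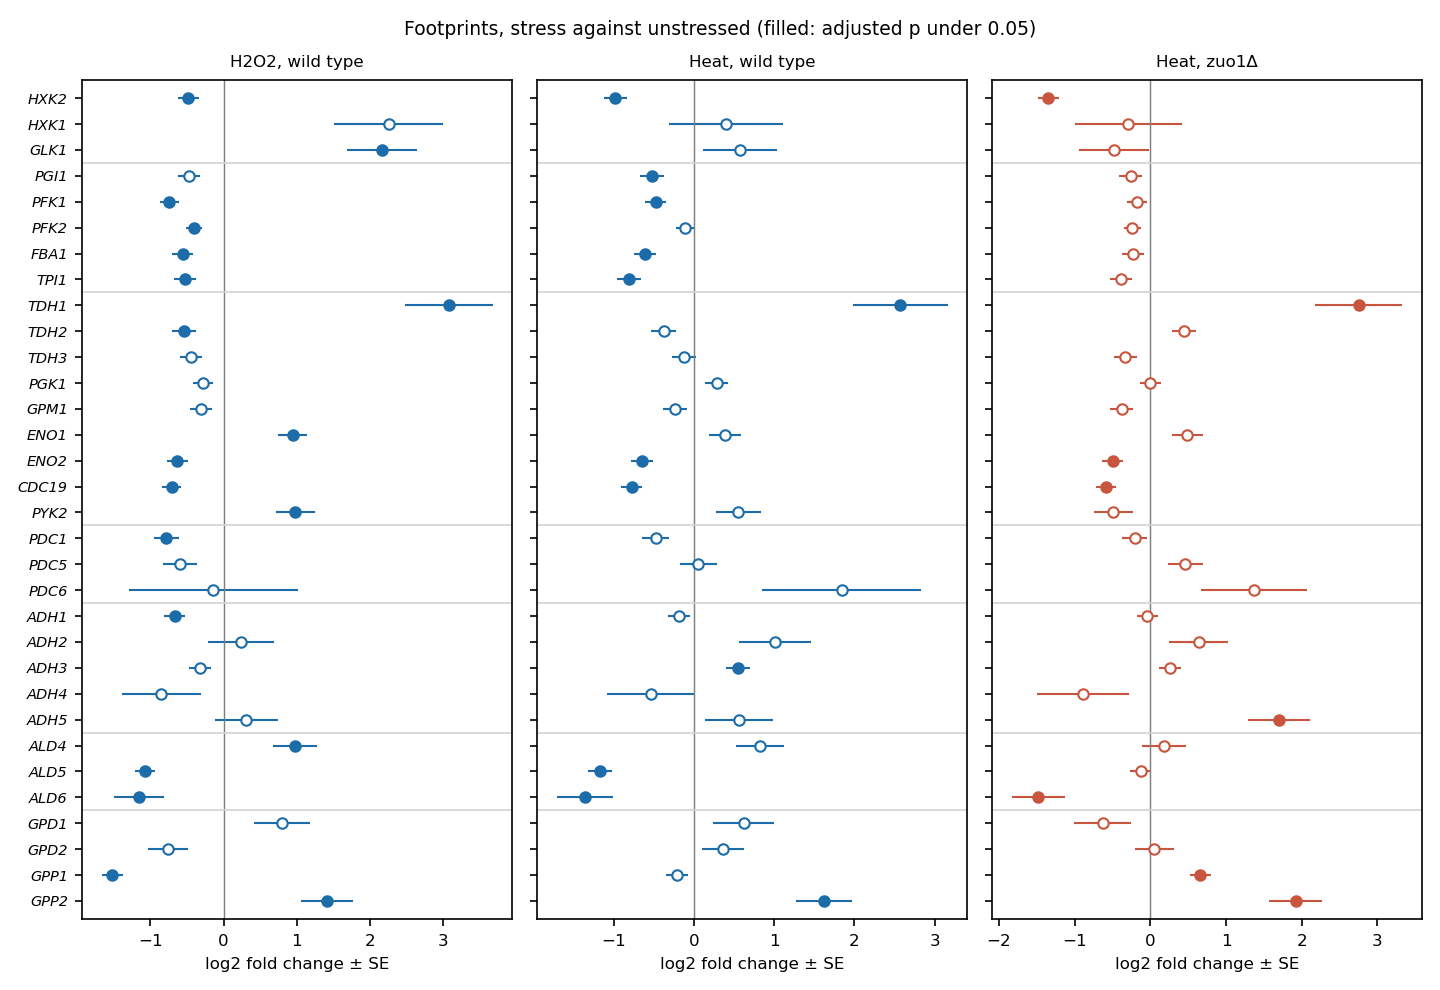
Log2 difference in footprints, stress against unstressed, for each enzyme with its SE: wild type after H2O2 and after heat, and zuo1Δ after heat, each panel with its own axis. Filled points passed at an adjusted p under 0.05; TDH1 and GPP2 lie to the right in all 3 panels, and ALD6 and HXK2 to the left.

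Wild-type mRNA gave few calls for the stresses. After H2O2 GPP1 fell, by 1.96 (SE 0.48, edgeR adjusted p = 0.0477), and it was the 1 enzyme that passed, where 1.22% of genes fell and 1.44% rose. Its mRNA went from 1120 and 1580 CPM to 410 and 281, with both H2O2 libraries below both unstressed ones. The call was lost without any 1 of these 4 libraries (adjusted p from 0.0558 to 0.432) and without the 3 doubted libraries, and library size alone gave 7 rises and 0 falls. DESeq2 called 2 rises and 13 falls. After heat 0 passed, where 0.296% of genes fell and 0.394% rose, the unadjusted edgeR p was under 0.05 for 10, and with DESeq2 4 rose and 6 fell. Without wild-type unstressed replicate 1 edgeR called 2 rises and 4 falls after heat, and library size alone gave 3 rises and 0 falls.

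The balance of isozymes was followed as the log2 ratio of a major to a minor form in each library, on counts per kb. The scaling factor of a library cancels in such a ratio, so it does not depend on the choice of scaling. For 10 pairs in each assay the genotypes were compared by a two-sided exact permutation test that exchanged genotype labels within each condition. It had 216 arrangements, a smallest possible p of 0.00926 and Benjamini-Hochberg adjustment over 10 pairs. A pair that reaches this p alone cannot pass after adjustment, so each call also depends on the p of the other pairs. For a stress against unstressed the same kind of test allows no p under 0.0556 even with both genotypes of an assay pooled, so stress differences in the ratios were not tested and are given as a description.

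HXK2 over HXK1 in footprints was 2.89 and 4.50 in unstressed wild type, 0.60 and 0.91 after H2O2 and 1.84 and 2.45 after heat. In zuo1Δ it was 1.81 and 3.86, then 2.80 (doubted) and 0.98, then 2.08 and 1.03. In mRNA it was 4.30 and 5.30, 1.24 and 1.22, and 2.71 and 2.76 in wild type, against 2.19 and 3.94, 0.76 and 1.91 (doubted), and 1.24 (doubted) and 0.87 in zuo1Δ. Both stresses gave lower ratios than either unstressed library in wild type and in zuo1Δ mRNA, and the genotypes did not differ past the threshold (adjusted p = 0.861 and 0.185, exact permutation tests).

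HXK2 over GLK1 in footprints was 2.59 and 3.71, 0.23 and 0.58, and 1.35 and 1.66 in wild type. The zuo1Δ values were 1.46 and 2.61, 2.04 (doubted) and 0.69, and 0.71 and 1.40. In mRNA it was 0.58 and 3.20, -1.13 and -0.79, and -2.68 and -1.20 in wild type, so GLK1 had more mRNA per kb than HXK2 in the stressed libraries, and -0.42 and 1.99, -0.09 and 0.29 (doubted), and 0.31 (doubted) and 0.69 in zuo1Δ. The mRNA replicates of unstressed cells differed by more than 2 log2 units in both genotypes.

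TDH3 over TDH1 had the widest range of the 10 pairs in wild-type footprints. In wild-type footprints it was 6.41 and 7.28 unstressed, 3.21 and 3.29 after H2O2 and 4.06 and 4.11 after heat, a mean fold of 115, 9.52 and 17. The zuo1Δ footprints gave 5.52 and 6.35, 6.08 (doubted) and 3.44, and 2.71 and 2.93. In mRNA it was 8.37 and 8.96, 4.22 and 3.92, and 6.59 and 5.28 in wild type, and 6.75 and 7.26, 3.42 and 3.34 (doubted), and 3.98 (doubted) and 3.40 in zuo1Δ. Within each condition the zuo1Δ mRNA ratio was lower, with a mean difference of -1.53 (p = 0.00926, adjusted p = 0.0463, exact permutation test). In footprints the difference was -0.22 (adjusted p = 0.833, exact permutation test).

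ENO2 over ENO1 in footprints was 4.16 and 4.75, 2.90 and 2.81, and 3.43 and 3.31 in wild type and 3.47 and 3.94, 3.79 (doubted) and 3.08, and 2.80 and 2.61 in zuo1Δ. The mRNA values were 4.31 and 5.03, 3.08 and 3.29, and 3.85 and 3.83 in wild type and 3.65 and 4.47, 3.13 and 3.15 (doubted), and 3.50 (doubted) and 3.02 in zuo1Δ. Apart from the doubted footprint library, stressed values were below both unstressed values of the same genotype and assay. CDC19 over PYK2 in footprints was 9.09 and 9.84, 7.67 and 7.77, and 7.99 and 8.17 in wild type, but 8.72 and 9.12, 8.86 (doubted) and 8.18, and 8.75 and 8.88 in zuo1Δ. Its heat values overlapped the unstressed ones in zuo1Δ and not in wild type, a difference of responses that did not pass for either gene alone. In mRNA CDC19 over PYK2 was 6.11 and 7.65, 4.59 and 4.36, and 4.84 and 4.26 in wild type, and 5.06 and 6.69, 5.88 and 5.80 (doubted), and 6.25 (doubted) and 5.98 in zuo1Δ.

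PDC1 over PDC5 was the footprint ratio that separated the genotypes in every library. It was 10.22 and 9.95, 9.88 and 9.92, and 9.44 and 9.64 in wild type and 11.35 and 11.54, 11.20 (doubted) and 10.87, and 10.89 and 10.62 in zuo1Δ. The mean difference of 1.24 had the smallest p the design allows, 0.00926, and an adjusted p of 0.0926 over the 10 pairs (exact permutation test). It did not pass, but a pair that reaches that p alone cannot, so the adjusted test of all libraries could not decide this pair. Without the doubted footprint library the difference was 1.18. The mRNA ratio was 10.30 and 10.26, 9.63 and 9.45, and 10.58 and 9.68 in wild type and 10.12 and 10.25, 9.48 and 10.13 (doubted), and 9.82 (doubted) and 10.42 in zuo1Δ, with a mean difference of 0.05 (adjusted p = 0.944, exact permutation test).

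ADH1 over ADH2 in mRNA was 11.07 and 10.72, 10.34 and 9.07, and 9.25 and 9.11 in wild type, and 9.62 and 8.27, 7.21 and 7.70 (doubted), and 7.22 (doubted) and 7.23 in zuo1Δ. The zuo1Δ value was lower within each condition, by 2.05 on average (p = 0.00926, adjusted p = 0.0463, exact permutation test). In footprints it was 10.66 and 10.99, 10.14 and 9.79, and 9.86 and 9.45 in wild type and 9.99 and 9.44, 10.80 (doubted) and 10.34, and 8.66 and 9.83 in zuo1Δ, and the genotypes overlapped (adjusted p = 0.602, exact permutation test). ADH2 had as few as 14 counts in a footprint library, wild-type unstressed replicate 2. Without the doubted libraries the mRNA differences of TDH3 over TDH1 and ADH1 over ADH2 were -1.62 and -2.13 and did not pass. Fewer arrangements and a larger smallest p were left there, so the lost calls do not show weaker differences. Neither pair passed without wild-type unstressed replicate 1 or zuo1Δ heat replicate 2.

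ALD6 over ALD4 in footprints was 4.30 and 4.66, 2.32 and 2.37, and 2.41 and 2.09 in wild type and 2.69 and 3.11, 2.79 (doubted) and 1.39, and 1.29 and 1.04 in zuo1Δ. The difference of -0.97 did not pass with all libraries (p = 0.0278, adjusted p = 0.123, exact permutation test) and was -1.21 without the doubted library. With that library left out, the zuo1Δ footprint ratios lay below the wild-type ones within each condition. In mRNA it was 2.91 and 4.47, 1.69 and 2.24, and 0.62 and 1.20 in wild type and 2.21 and 3.67, 2.02 and 1.65 (doubted), and 1.84 (doubted) and 1.57 in zuo1Δ, with overlap of the genotypes.

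GPD1 over GPD2 was the 1 ratio that was higher after H2O2 in wild type. In footprints it was 1.48 and 0.23, 2.56 and 2.29, and 1.51 and 0.68 in wild type, but 1.36 and 0.11, 0.92 (doubted) and 1.15, and 0.19 and -0.07 in zuo1Δ. The genotype difference of -0.85 did not pass (p = 0.037, adjusted p = 0.123, exact permutation test). For mRNA the values were 0.59 and -0.42, 1.81 and 1.49, and 0.81 and 0.06 in wild type and 0.80 and -0.19, 0.76 and 0.02 (doubted), and 0.65 (doubted) and -0.07 in zuo1Δ. GPP1 over GPP2 in footprints was 3.94 and 4.52, 1.27 and 1.29, and 2.29 and 2.48 in wild type and 3.13 and 3.91, 3.48 (doubted) and 2.02, and 2.30 and 2.16 in zuo1Δ. The mRNA ratio was 3.48 and 4.38, 0.90 and 0.92, and 1.44 and 1.79 in wild type and 2.52 and 3.30, 1.32 and 1.74 (doubted), and 1.51 (doubted) and 1.82 in zuo1Δ. All stressed GPP1 over GPP2 ratios were below the unstressed ones of the same genotype and assay except that of the doubted footprint library.

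Counted over the 10 pairs, both wild-type H2O2 footprint libraries were below both unstressed ones in 9 pairs and above them in 1, and both heat libraries were below in 9. In zuo1Δ footprints 6 pairs were lower after heat, and after H2O2, with the doubted library, 1 was lower and 1 higher. In mRNA 9 pairs were lower and 1 higher after H2O2 and 8 lower after heat in wild type, and 6 were lower after each stress in zuo1Δ. HXK2 enters 2 of these pairs and all share the unstressed libraries, so they are not independent. How often other pairs of genes lie apart in this way was not computed, so the counts are a description alone. They also weigh small and large shifts alike. In wild-type H2O2 footprints the mean shifts of the lower pairs ran from -3.59 for TDH3 over TDH1 to -0.18 for PDC1 over PDC5.

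**Figure D5:**
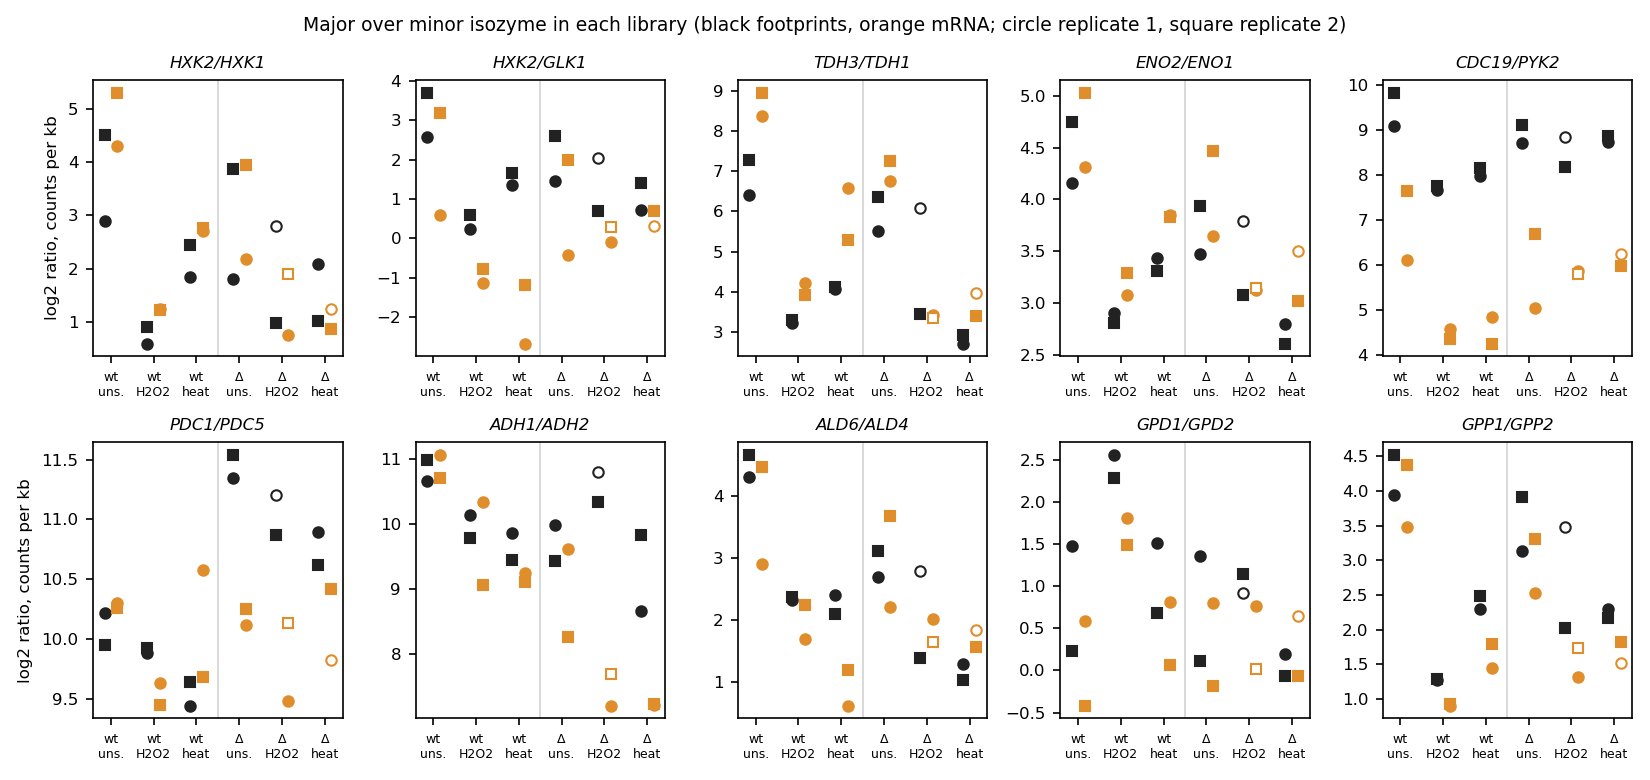
Log2 ratio of the major to the minor isozyme, on counts per kb, in each library for 10 pairs, by genotype (wt, Δ for zuo1Δ) and condition (uns., unstressed). Black is footprints and orange mRNA, circles are replicate 1, squares replicate 2 and open symbols the 3 doubted libraries; PDC1/PDC5 footprints lie between 9.44 and 10.22 in wild type and between 10.62 and 11.54 in zuo1Δ.

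Whether the genotypes responded differently to stress was tested directly as an interaction in footprints. For H2O2 1 enzyme passed, GPP1, where 0.889% of genes had a positive and 0.474% a negative interaction. GPP1 footprints were 2940 and 3260 CPM in unstressed wild type and 1090 and 1060 after H2O2. In zuo1Δ they were 1570 and 1900 unstressed, and 1920 and 1830 after H2O2, where replicate 1 is the doubted library. Both wild-type H2O2 libraries lay far below both unstressed ones while those of zuo1Δ overlapped, and the interaction was 1.64 ± 0.20 (edgeR adjusted p = 0.00587). It was 1.68 without the doubted library (adjusted p = 0.00811) and ranged from 1.51 to 1.84 over the 8 fits that left out 1 library. It lost its call without wild-type H2O2 replicate 2 or zuo1Δ unstressed replicate 1, with the highest adjusted p at 0.0717. The number of enzymes with an H2O2 interaction ranged from 0 without either of these 2 libraries to 7 without zuo1Δ H2O2 replicate 2, the replicate that is not in doubt.

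For heat the interaction passed for ALD5, a mitochondrial aldehyde dehydrogenase (YER073W, chromosome V, 304030 to 305592), where 0.612% of genes had a positive and 0.415% a negative interaction. ALD5 footprints went from 366 and 392 CPM to 180 and 157 in wild type, and from 188 and 208 to 171 and 191 in zuo1Δ. Unstressed zuo1Δ was thus already near the stressed wild-type level, and the interaction was 1.04 ± 0.20 (edgeR adjusted p = 0.0326). Its size ranged from 0.94 to 1.15 over the fits that left out 1 library, but it passed in 1 of those 8 alone, the fit without zuo1Δ heat replicate 1. After H2O2 ALD5 had 174 and 187 CPM in wild type and 174 and 157 in zuo1Δ, an interaction of 0.82 ± 0.20 that did not pass (adjusted p = 0.0634). GPP1 had a heat interaction of 0.87 ± 0.20 (adjusted p = 0.0608), with 2780 and 2590 CPM in heated wild type and 2980 and 2470 in heated zuo1Δ.

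Other genes of these pathways were followed as a list of 45, of which 36 were measured: side isozymes, gluconeogenic and anaplerotic enzymes, regulators, glycerol uptake and use, and pyruvate and acetate use. Averaged over conditions, 5 of the 36 rose and 10 fell in zuo1Δ footprints, beside 12.5% and 13.1% of all genes, with a median of -0.17. The 5 rises are a share near that of all genes. MPC3 and MPC2, subunits of the mitochondrial pyruvate carrier, rose by 1.45 (SE 0.31, edgeR adjusted p = 0.0065) and 0.95 (SE 0.12, adjusted p = 0.000244). The rise of MPC3 rests on few reads, at 0.77 to 8.76 CPM per footprint library. GPM2, a homologue of phosphoglycerate mutase, fell by 1.41 (SE 0.32), and the cytosolic malate dehydrogenase MDH2 by 0.92 (SE 0.17). In mRNA 6 rose and 15 fell, beside 24.2% and 26.4% of all genes. In footprints 1 rose and 3 fell without stress (1.78% and 3.04% of all genes), and 1 rose and 4 fell after heat (2.86% and 3.61%). After H2O2 1 rose and 9 fell, beside 9.34% and 9.68% of all genes, but 1 rose and 1 fell without the 3 doubted libraries, beside 4.94% and 3.26%. Leaving out these libraries was added for this list after seeing the data, and it gave 6 rises and 10 falls averaged over conditions in footprints and 4 and 13 in mRNA.

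In wild-type footprints 8 of the 36 rose and 1 fell after H2O2, beside 9.36% and 8.79% of all genes. GCY1, a glycerol dehydrogenase, rose by 4.56 (SE 0.86, edgeR adjusted p = 0.00523), EMI2, a homologue of glucokinase, by 1.56 (SE 0.43), GUT2, the mitochondrial glycerol-3-phosphate dehydrogenase, by 1.48 (SE 0.25), and ADR1, an activator of genes for growth without glucose, by 1.43 (SE 0.33). After heat 3 rose and 1 fell, beside 3.53% and 6.28%: GPM2 by 2.13 (SE 0.59), ADR1 by 1.66 (SE 0.33) and the pyruvate carboxylase PYC1 by 1.29 (SE 0.22), and PDB1, a pyruvate dehydrogenase subunit, was at -0.48 ± 0.12. Without the doubted libraries 4 rose and 3 fell in that comparison, beside 4.17% and 8.37%. In zuo1Δ 1 rose and 4 fell after heat, beside 5.61% and 6.26% of all genes, and 3 rose and 4 fell without the doubted libraries, beside 6.99% and 8.51%. After H2O2 0 passed in zuo1Δ, and 2 rose without the doubted libraries, beside 2.35% of all genes. GUT2 had a negative H2O2 interaction, at -1.63 ± 0.34 (edgeR adjusted p = 0.0499), the 1 gene of this list that passed, beside 0.474% of all genes. That call rested on a doubted library: without it the interaction was -1.30 ± 0.34 and did not pass (edgeR adjusted p = 0.0988).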

How the data were processed

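Gene counts of 12 mRNA-seq and 12 ribosome profiling libraries were used as the authors deposited them: whole-number read counts for 5211 genes, not normalized. Per the submitters' processing notes the tools were cutadapt, Bowtie2, HISAT2 and SAMtools with build R64. For the counting tool, annotation, strand setting and treatment of reads that match several genes, nothing is stated in the labels or notes. Groups came from the labels. Genes at 0 in all libraries of a genotype were left out, and edgeR's filterByExpr (minimum count 10, minimum total 15) was applied per assay, which left 5064 genes in footprints and 5070 in mRNA. Counts were scaled by TMM factors (0.39 to 1.94 in mRNA, 0.841 to 1.13 in footprints) and tested with edgeR 4.0.16 quasi-likelihood fits over the 6 groups of an assay, with Benjamini-Hochberg adjustment over all genes tested and a threshold of 0.05. R was 4.3.3, limma 3.58.1, DESeq2 1.42.0, Python 3.11.15, numpy 2.4.6, pandas 2.3.3, scipy 1.17.1 and matplotlib 3.10.9. Levels per kb used the coding span in the gene table, to which 5198 of 5211 IDs matched. With 2 replicates per group, the main fits set each difference against a spread estimated over all 6 groups of the assay, the doubted libraries included.

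The 32 enzymes, the 36 measured further genes and the tests were chosen with earlier results of these data known, as were the 3 doubted libraries. All 32 enzymes may be named. Values in every library are given for the isozyme pairs and for the largest rise and fall in a comparison, and up to 4 further pathway genes are named per comparison. The fits were tested on simulated counts: of 100 genes changed 2-fold, 63 were recovered for the unstressed genotype comparison in footprints, 96 for its mean over conditions and 77 for that mean in mRNA. Of the genes left unchanged, 4, 13 and 10 were called. The changed genes and their directions were drawn at random. A shift of many abundant genes in 1 direction was thus not simulated, and these rates do not cover it. Alternatives were DESeq2, other scalings, no filter, a replicate block, only the groups compared, leaving out each library, and leaving out the 3 doubted ones.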

Additional observations from a re-analysis of the deposited data

Results flagged for a closer look

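The response of GPP1 footprints to H2O2 differed between the genotypes, at 1.64 on the log2 scale (SE 0.20, edgeR adjusted p of the interaction = 0.00587), with a fall of 1.52 in wild type and a value of 0.12 in zuo1Δ. Its range over the 8 fits without 1 library was 1.51 to 1.84, and the call was lost in 2 of them. The response of ALD5 footprints to heat differed by 1.04 (SE 0.20, edgeR adjusted p = 0.0326), with a fall of 1.17 in wild type and a value of -0.13 in zuo1Δ. That call was lost in 7 of the 8 fits without 1 library. In both genes unstressed zuo1Δ was lower than unstressed wild type, by 0.84 for GPP1 and 0.94 for ALD5, and these unstressed libraries enter the interactions.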

How the results depend on the processing

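Counts are of the 32 enzymes that passed, or of the 10 isozyme ratios. Of 127 gene results that passed, 127 were kept with RLE size factors, no filter or the replicate block, 126 with DESeq2, 120 without the 3 doubted libraries and 91 with library size alone. With library size alone 11 mRNA differences averaged over conditions turned positive. Of these, 9 passed under one of the scalings: HXK1 0.99, PFK1 0.25, ADH4 0.76, ALD4 0.19, ALD5 0.19, ALD6 0.11, GPD2 0.14, GPP1 0.49 and GPP2 0.59. CDC19 at 0.55 and ADH3 at 0.67 passed under neither. The 2 fits differ in the scaling alone, with TMM factors of 0.39 to 1.28 in wild-type mRNA libraries and 1.03 to 1.94 in zuo1Δ ones. Why these factors differ between the genotypes was not tested.

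The genotype count averaged over conditions was 15 with library size alone in footprints and 15 in mRNA. Other mRNA counts with library size alone were 9 for genotype without stress, 7 for H2O2 and 3 for heat in wild type. DESeq2 gave 20, 15 and 10 for these 3 mRNA comparisons, 6 for H2O2 in zuo1Δ footprints, 3 for each footprint interaction and 2 for efficiency between genotypes. RLE size factors gave 2 heat interactions. Fits of only the groups compared gave 17 for genotype in unstressed footprints, 2 heat interactions, and 3 each for H2O2 and heat in wild-type mRNA. Without the 3 doubted libraries the counts were 14 for genotype after heat in footprints, 9 for H2O2 in zuo1Δ footprints, 2 heat interactions, 0 for H2O2 in wild-type mRNA, 2 footprint ratios and 0 mRNA ratios.

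The labels do not say that a replicate number marks a shared culture, and deviations of same-numbered libraries correlated from -0.33 to 0.78 in mRNA and from -0.07 to 0.35 in footprints. In each assay the highest value was that between unstressed wild type and unstressed zuo1Δ. With the replicate block the counts were 3 H2O2 interactions, 15 for genotype without stress, 5 for H2O2 and 7 for heat in wild-type mRNA, and 0 mRNA ratios. For the ratios the block left 64 arrangements and a smallest possible p of 0.0312, so little room to pass after adjustment. Leaving out libraries also left fewer arrangements for the ratios.

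Leaving out 1 library in turn, footprint genotype counts ranged from 7 to 9 without stress, 7 to 17 after H2O2, 4 to 9 after heat and 16 to 25 averaged. Footprint stress counts ranged from 5 to 15 (H2O2) and 2 to 6 (heat) in wild type, and 0 to 9 and 2 to 5 in zuo1Δ. Interactions ranged from 0 to 7 (H2O2) and 0 to 1 (heat). In mRNA the ranges were 0 to 9 for genotype without stress, 24 to 29 averaged, 0 to 0 for H2O2 and 0 to 6 for heat. Efficiency ranged from 0 to 4 between genotypes, 0 to 0 for H2O2 and 0 to 1 for heat, and ratios from 0 to 2 in footprints and 0 to 3 in mRNA. PDC6, with as few as 1 count in a library, and ADH4, with 3, were limited by depth.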
